A study of Mus musculus with 6 samples.

Results

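Pattern recognition receptor genes were examined for promoter accessibility in MHCII-high medullary epithelium of the thymus, taken from Kat7-knockout and wildtype mice. The members were chosen by gene symbol, with earlier results of these data known. They were Toll-like receptors (Tlr and a digit), NOD-like receptors (symbols beginning Nlrp, Nlrc or Nlrx) and C-type lectin-domain genes (Clec and a digit). Nlrc5 and pseudogenes marked -ps were left out. This gave 66 genes of 27095 in the table, namely 12 Toll-like receptors, 22 NOD-like receptors and 32 C-type lectin-domain genes. The families are described apart.

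The study compared 3 Kat7-knockout libraries with 3 wildtype libraries, all on the C57BL/6 background and each from its own biological replicate. ATAC-seq reads accessibility from where the transposase Tn5 inserts its adapters, which it does mainly in open DNA. Kat7 encodes an enzyme that acetylates histones. The driver of the deletion, the deleted part of Kat7, and the age and sex of the mice were not given in the sources used here. Each gene had 1 window around its start, and the values are counts per window, so they describe accessibility around the start used for the window and not expression. All 66 member windows were 5001 bases long, so CPM (counts scaled to library size with TMM factors) refer to the same length in each. The comparison between members is less direct for 6 windows that share bases with another. These had 1285 (Clec16a) to 4510 (Clec2i) unshared bases. All 66 passed the filter on low counts.

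Pattern recognition receptors bind structures that microbes or damaged cells expose. Toll-like receptors sit at the cell surface or in endosomes and signal through the adaptors MyD88 and TRIF to NF-kB and interferon regulatory factors. NOD-like receptors are cytosolic, and several of them assemble inflammasomes that activate caspase-1, while others act in oocytes and early embryos. C-type lectin-domain proteins include fungal and damage sensors of myeloid cells, ligands of natural killer cell receptors and secreted proteins. In the thymus, Toll-like receptor signalling in medullary epithelium is known to raise chemokines that draw dendritic cells, and medullary epithelial cells also transcribe genes of other tissues so that T cells are tested against them.

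Library totals lay between 15482439 and 19740835 counts in knockout and between 15494911 and 19832326 in wildtype. The Kat7 window held 21.2 ± 14.9 CPM in knockout and 267 ± 26.5 CPM in wildtype (SD, n = 3 each). Knockout library 3 kept the most of the knockout libraries, with 38.3 CPM, against 11.9 and 13.2 CPM in knockout libraries 1 and 2. The log2 fold change, always knockout over wildtype, was -3.66 (edgeR quasi-likelihood adjusted p = 0.0143). The adjusted p was 0.0643 without wildtype library 1 and 0.0565 without wildtype library 3. Without knockout library 3 the log2 fold change was -4.41 (adjusted p = 1.05e-130). Windows of 12 medullary and epithelial markers, among them Epcam, Krt5, Aire, Cd80 and Fezf2, had counts in every library, and 3 of them were higher (Foxn1, Krt5 and Trp63). Their summed level was 2020 to 2440 CPM in knockout and 1850 to 1990 CPM in wildtype libraries. Without Foxn1, which had 300 CPM in knockout and 92.9 CPM in wildtype, the groups overlapped, with 1747 to 2113 CPM in knockout and 1773 to 1874 CPM in wildtype. The Aire window shares bases with that of Dnmt3l. Over all 24817 tested windows, 26.6% passed at an adjusted p under 0.05 (20.2% lower and 6.36% higher). Knockout libraries 2 and 3 stood above the other 4 in their median at closed windows. The median over 1126 olfactory receptor windows was 0.688, 1.43 and 1.59 CPM in knockout libraries 1 to 3, against 0.615, 0.895 and 1.00 CPM in wildtype libraries 1 to 3. The 95th percentile of these windows did not set them apart, with 2.18, 2.87 and 3.12 CPM in knockout and 2.51, 3.10 and 3.13 CPM in wildtype.

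Toll-like receptor windows held 4 gains and 1 loss. Of the 12, 4 were higher in knockout (Tlr3, Tlr6, Tlr9 and Tlr13), 1 was lower (Tlr12) and 7 did not pass, where 6.36% of all tested windows were higher, 20.2% lower and 26.6% changed in either direction. The median log2 fold change of the family was 0.24, beside 0.04 over all tested windows, and it was 0.13 without knockout library 3 or wildtype library 1. Every knockout library lay above every wildtype library at 4 members and below at 2, where 13.5% and 24.6% of all tested windows were separated in these directions. As a mark of closed chromatin, the 95th percentile of the olfactory receptor windows, 0.633 CPM per kb, was taken after the data were seen. By it, 9 of 12 Toll-like receptor windows were open and those of Tlr7, Tlr8 and Tlr11 were not, where 62.2% of all windows were open.

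**Figure D1:**
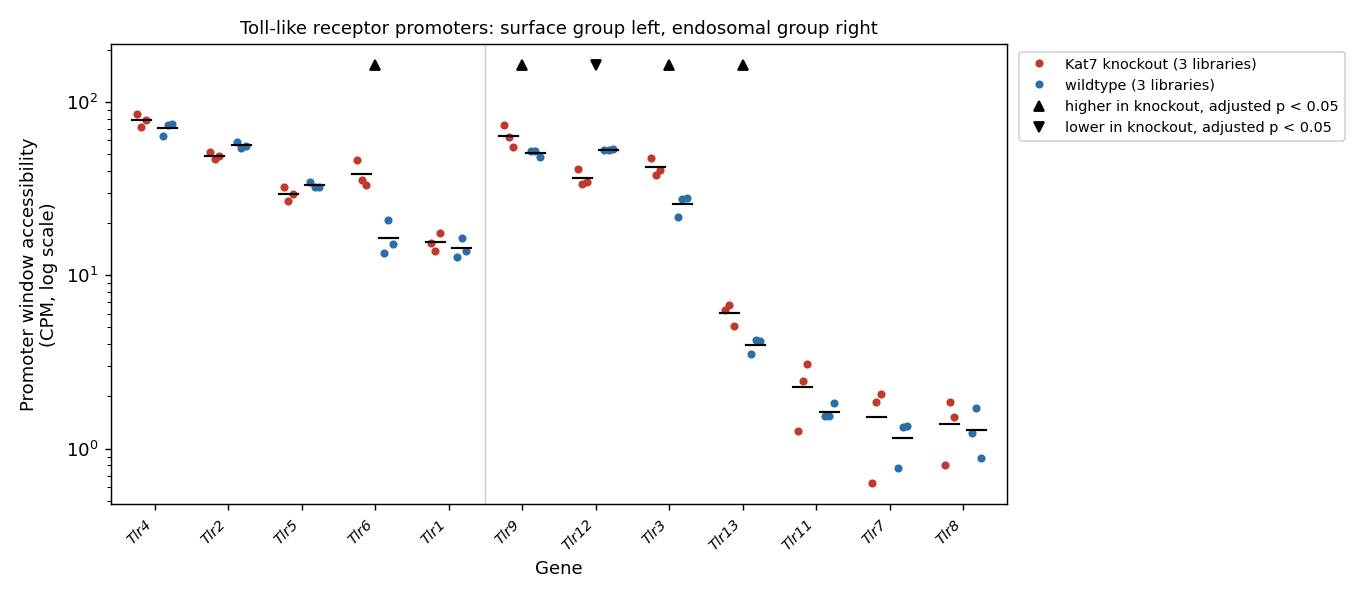
Accessibility of the 12 Toll-like receptor windows in CPM on a log scale, with 1 point per library, a bar at the mean of 3 libraries, knockout left of wildtype, and triangles over genes that passed the test. At Tlr6 and Tlr3 every knockout point lies above every wildtype point, at Tlr12 every knockout point lies below, and Tlr7, Tlr8 and Tlr11 lie near 1 to 3 CPM.

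Among the surface receptors, Tlr6 had the largest change of the family. TLR6 pairs with TLR2 to detect bacterial diacylated lipopeptides. Its window (gene identifier 21899, chr5:64958034-64963034, mm10) held 46.2, 35.2 and 33.0 CPM in knockout libraries 1 to 3, against 13.4, 20.8 and 15.1 CPM in wildtype libraries 1 to 3. The groups did not overlap, and the highest wildtype library was well below the lowest knockout library. The log2 fold change was 1.22 (SE 0.117, edgeR adjusted p = 1.21e-23), a 2.33-fold gain. It passed in all 14 alternative analyses, with log2 fold changes of 1.06 to 1.52.

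Tlr1, the partner of TLR2 for triacylated lipopeptides, has the neighbouring window 22.3 kb away and did not pass. It held 15.4, 13.9 and 17.6 CPM in knockout, against 12.7, 16.4 and 13.9 CPM in wildtype, so the groups overlapped (log2 fold change 0.13, adjusted p = 0.516). On the other side, 4.0 kb away, Fam114a1 did not pass either (-0.27, adjusted p = 0.23), while Tmem156, 126.5 kb away, was higher (0.81). Whether Tlr6 and Tlr1 differed from each other in their response was not tested.

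Tlr2 itself, the receptor for bacterial lipoproteins that both TLR1 and TLR6 join, had 49.0 ± 2.06 CPM in knockout and 56.3 ± 2.48 CPM in wildtype (SD, n = 3 each). Every knockout library was below every wildtype library, but the difference did not pass (log2 fold change -0.20, adjusted p = 0.193). It passed in 5 of 14 alternatives, one of them without knockout library 1 (-0.24, adjusted p = 0.0285). Tlr4, the lipopolysaccharide receptor, was the most open of the family, with 78.6 ± 6.98 CPM in knockout and 70.7 ± 6.16 CPM in wildtype (0.15, adjusted p = 0.355). Tlr5, which binds flagellin, had 29.6 ± 2.90 CPM in knockout and 33.1 ± 1.28 CPM in wildtype (-0.16, adjusted p = 0.31). For these receptors the libraries of the groups lay close together or overlapped.

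The endosomal receptors moved in both directions. Tlr3, the sensor of double-stranded RNA, rose: its window (gene identifier 142980, chr8:45408539-45413539) held 47.7, 37.8 and 40.4 CPM in knockout, against 21.7, 27.7 and 27.9 CPM in wildtype. No library of one group reached the range of the other, and the log2 fold change was 0.71 (SE 0.113, adjusted p = 6.27e-09). The window shares bases with that of an unnamed gene model, and only 2779 of its bases are unshared. That window was higher too (0.90, adjusted p = 0.0224), while the next named windows on either side fell, with Fam149a at -1.59 and Sorbs2 at -1.08.

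Tlr12, a mouse receptor for profilin of Toxoplasma that lies in endosomes, was the only member of the family to fall. It had 40.7, 33.8 and 34.3 CPM in knockout, against 53.1, 52.5 and 53.3 CPM in wildtype. The wildtype libraries were nearly equal and all knockout libraries were below them (log2 fold change -0.55, SE 0.112, adjusted p = 1.04e-05). Its partner in profilin sensing, Tlr11, lay in the closed range, with 2.26 ± 0.914 CPM in knockout and 1.63 ± 0.171 CPM in wildtype, and did not pass (0.46, adjusted p = 0.398).

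Gains at Tlr9 and Tlr13 were smaller and less stable. Tlr9, the sensor of unmethylated CpG DNA, had 74.0, 62.3 and 54.6 CPM in knockout, against 51.8, 52.2 and 48.1 CPM in wildtype. The lowest knockout library was just above the highest wildtype library (log2 fold change 0.33, SE 0.113, adjusted p = 0.017). The call was lost without knockout library 1 (0.20, adjusted p = 0.0647), without wildtype library 1 (adjusted p = 0.061) and without wildtype library 3 (adjusted p = 0.0534). Tlr13, which recognises bacterial ribosomal RNA in mice, had 6.30, 6.75 and 5.08 CPM in knockout, against 3.54, 4.22 and 4.19 CPM in wildtype. The groups did not overlap (0.61, SE 0.209, adjusted p = 0.0169), and the call was lost without knockout library 2 (adjusted p = 0.153) , without any 1 wildtype library (adjusted p = 0.0745 to 0.101) and with scaling to library totals (adjusted p = 0.0721). Tlr7 (0.40, adjusted p = 0.564) and Tlr8 (0.12, adjusted p = 0.874), receptors for single-stranded RNA that adjoin each other on the X chromosome, had between 0.630 and 2.08 CPM in every library and did not pass.

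The sequences of the promoters with the clearest changes are shown here for the Toll-like receptors, as the 250 bases before the gene start in RefSeq (build GRCm38.p6, which is mm10). Of the 66 members, 54 had a promoter in the RefSeq table, and 44 of those began exactly at the window's own start site; that of Tlr6 lay 14 bases, that of Tlr3 159 bases, that of Tlr11 2588 bases and that of Nlrp9c 9457 bases from it. Capitals mark matches, on either strand, to 5 short motifs that were searched: the interferon-stimulated response element core (GAAA, then NN, then GAAA), the AP-1 site (TGANTCA), the GC box (GGGCGG), the NF-kB site (GGGA, then N, TT, N and CC) and the TATA box (TATAAA). N is any base, and each motif was searched independently of the others.
Tlr6 (chr5:64960049-64960298, minus strand): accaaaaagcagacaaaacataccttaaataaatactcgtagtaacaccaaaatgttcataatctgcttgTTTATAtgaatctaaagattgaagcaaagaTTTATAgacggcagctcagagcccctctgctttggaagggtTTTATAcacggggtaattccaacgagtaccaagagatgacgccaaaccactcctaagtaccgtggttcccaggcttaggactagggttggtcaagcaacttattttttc
Tlr3 (chr8:45410381-45410630, minus strand): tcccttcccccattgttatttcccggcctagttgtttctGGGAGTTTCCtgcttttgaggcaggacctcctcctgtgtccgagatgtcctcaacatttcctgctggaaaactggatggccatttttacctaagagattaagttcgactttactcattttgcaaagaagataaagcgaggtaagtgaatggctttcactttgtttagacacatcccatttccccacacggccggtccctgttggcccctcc
Tlr12 (chr4:128618620-128618869, minus strand): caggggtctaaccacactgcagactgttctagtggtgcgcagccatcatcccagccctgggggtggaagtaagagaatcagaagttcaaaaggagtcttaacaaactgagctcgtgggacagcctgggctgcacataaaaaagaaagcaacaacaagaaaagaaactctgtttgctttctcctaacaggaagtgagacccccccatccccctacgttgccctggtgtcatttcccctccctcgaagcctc
Among the promoters of 27025 genes, 3.04% held the response element core, 6.87% the AP-1 site, 32.9% the GC box, 0.94% the NF-kB site and 13% the TATA box in the same 250 bases. The Tlr6 stretch had 3 matches to the TATA box letters, that of Tlr3 had 1 match to the NF-kB letters, and that of Tlr12 had none of the 5. CpG dinucleotides numbered 6 in Tlr6, 6 in Tlr3 and 4 in Tlr12, where the median of all promoters was 6. A match is a description of the letters and not a bound site.

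NOD-like receptor windows held 2 gains and 2 losses, and their oocyte genes were at closed levels. Of the 22 members, 2 were higher in knockout (Nlrp1b and Nlrp9c), 2 were lower (Nlrp3 and Nlrp6) and 18 did not pass, beside 6.36% higher and 20.2% lower over all tested windows. Every knockout library was above every wildtype library at 4 members and below at 2, beside 13.5% and 24.6% of all tested windows. The median log2 fold change was 0.49, and it was 0.03 over the sensors and regulators and 0.68 over the oocyte and reproductive genes. Over all tested windows it was 0.04, and over those in the lowest quartile of mean CPM it was 0.37. That quartile held 14 of the 22 members. With a library left out the family's median was 0.29 (without wildtype library 1) to 0.65 (without knockout library 1), and it was -0.08 over the 7 members whose mean count reached 50. Of 9 inflammasome sensors and regulators, 7 were open by the olfactory mark, and of 13 oocyte and reproductive genes none was, where 62.2% of all windows were.

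**Figure D2:**
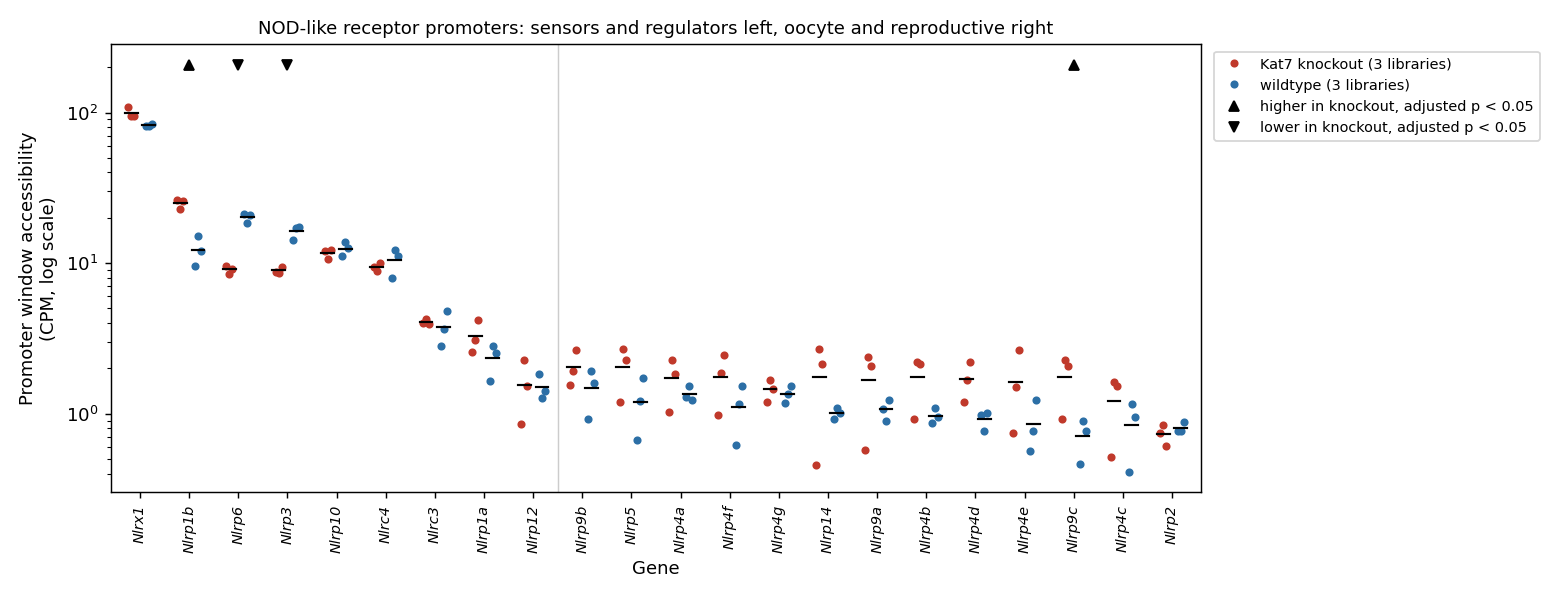
Accessibility of the 22 NOD-like receptor windows in CPM on a log scale, with 1 point per library, a bar at the mean of 3 libraries, knockout left of wildtype, and triangles over genes that passed the test. Nlrp1b is higher and Nlrp6 and Nlrp3 are lower in all knockout libraries, and most oocyte genes have 1 knockout library below the other two.

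Nlrp6 had the largest loss of all members. NLRP6 is an inflammasome sensor of the intestinal epithelium that acts on mucus secretion and antiviral defence. Its window (gene identifier 101613, chr7:140917902-140922902) held 9.63, 8.48 and 9.11 CPM in knockout, against 21.2, 18.4 and 21.0 CPM in wildtype. Knockout libraries had less than the lowest wildtype library in every case, and the log2 fold change was -1.16 (SE 0.134, adjusted p = 1.62e-16). The adjacent windows Pgghg (0.17, adjusted p = 0.276) and BC024386 (-0.16, adjusted p = 0.607) did not pass. Further out, Cox8b, 14.5 kb away, was higher (0.98) and Ifitm5, 26.1 kb away, was lower (-0.80).

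Nlrp3, the sensor that responds to ion flux, crystals and many other stimuli, fell as well. It had 8.77, 8.66 and 9.48 CPM in knockout, against 14.2, 17.2 and 17.3 CPM in wildtype (gene identifier 216799, chr11:59539686-59544686; log2 fold change -0.85, SE 0.139, adjusted p = 1.03e-08). The groups were clearly apart. The olfactory receptor window next to it, Olfr222, also fell (adjusted p = 0.000483), while Zkscan17 on the other side did not pass (-0.15).

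Nlrp1b moved the opposite way. It encodes a sensor that is cleaved by anthrax lethal factor in susceptible mouse strains. It had 26.1, 22.9 and 25.7 CPM in knockout, against 9.63, 15.1 and 12.1 CPM in wildtype (gene identifier 637515, chr11:71228733-71233733; log2 fold change 1.03, SE 0.125, adjusted p = 4.44e-15), with no overlap between the groups. The adjacent pseudogene Nlrp1c-ps, which the rule left out, was higher too (1.19, adjusted p = 2.31e-18; 22.5 CPM in knockout and 9.97 CPM in wildtype), whereas Nlrp1a on the other side did not pass (0.51, adjusted p = 0.213; 3.30 CPM in knockout and 2.33 CPM in wildtype). These genes are close copies of each other, so reads that align to more than one of them are uncertain. How such reads were counted was not given in the sources used here.

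The other sensors and regulators did not pass. Nlrx1, a mitochondrial protein that dampens antiviral signalling, was the most open, with 109, 95.6 and 94.4 CPM in knockout and 81.9, 81.0 and 83.5 CPM in wildtype. All knockout libraries were above all wildtype libraries, but the log2 fold change of 0.28 had an adjusted p of 0.065. It passed in 7 of 14 alternatives. Nlrp10 (-0.10, adjusted p = 0.636), Nlrc4 (-0.14), which drives the flagellin inflammasome, Nlrc3 (0.12) and Nlrp12 (0.03) had overlapping groups. Nlrp10 shares bases with Eif3f.

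Oocyte and reproductive genes lay at the level of closed windows with 1 call, beside 6.36% higher and 20.2% lower over all tested windows. Their means over all 6 libraries were 0.154 (Nlrp2, whose window shares bases with Gm5065) to 0.351 CPM per kb. They include Nlrp5, whose product MATER is needed in the early embryo and is an autoantigen of the parathyroid in people who lack AIRE. Nlrp5 had 1.2, 2.69 and 2.26 CPM in knockout, against 0.666, 1.21 and 1.71 CPM in wildtype, and did not pass (log2 fold change 0.78, adjusted p = 0.17). Nlrp9c was the one that passed. Its RefSeq start lies outside the window, so the value does not cover that promoter. It had 0.917, 2.27 and 2.08 CPM in knockout, against 0.461, 0.895 and 0.768 CPM in wildtype (1.31, SE 0.482, adjusted p = 0.0271). Its lowest knockout library was only just above its highest wildtype library, and the call was lost in 6 of 13 alternatives, among them those without knockout library 2 (adjusted p = 0.216) or 3 (0.109).

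Knockout libraries 2 and 3 had the highest medians at these genes, as they did at olfactory receptor windows. The median of the 13 genes was 0.917, 1.91 and 2.14 CPM in knockout libraries 1 to 3, against 0.871, 1.09 and 1.24 CPM in wildtype libraries 1 to 3. Without knockout library 1, 8 of the 13 were called higher, including Nlrp5 (1.06, adjusted p = 0.0167) and Nlrp14 (1.26, adjusted p = 0.00316), and none lower. In the same fit 12.6% of all tested windows were higher, against 6.36% with all libraries. The count of NOD-like receptors called higher was then 11. The part of the closed-window level in these values was not tested.

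**Figure D3:**
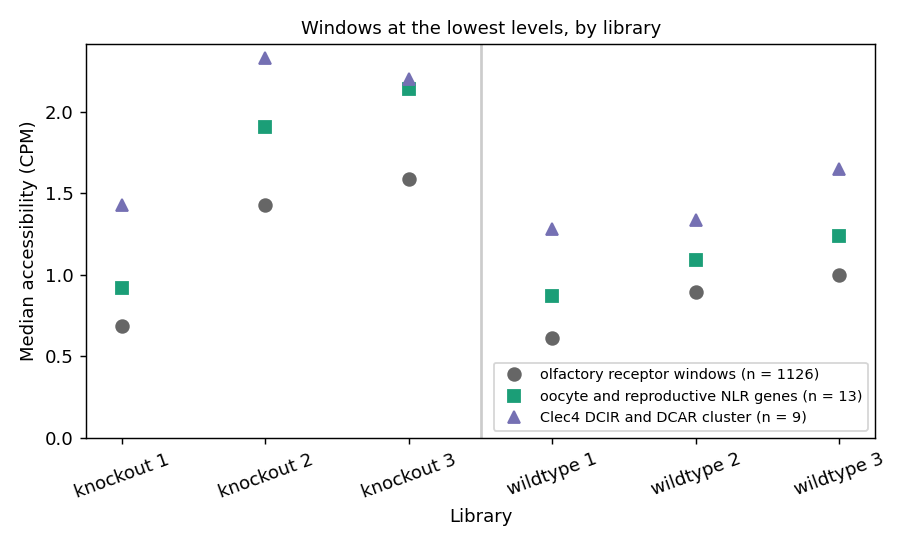
Median accessibility in CPM, on a linear axis from 0, of olfactory receptor windows, oocyte and reproductive NOD-like receptor genes, and the Clec4 cluster in each library, knockout left of wildtype. All 3 sets are higher in knockout libraries 2 and 3 than in knockout library 1, which has values close to those of wildtype libraries 1 and 2.

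For Nlrp1b and Nlrp6 the 250 bases before the start are printed because both changed at least 2-fold in opposite directions, with the same marks in capitals.
Nlrp1b (chr11:71230734-71230983, minus strand): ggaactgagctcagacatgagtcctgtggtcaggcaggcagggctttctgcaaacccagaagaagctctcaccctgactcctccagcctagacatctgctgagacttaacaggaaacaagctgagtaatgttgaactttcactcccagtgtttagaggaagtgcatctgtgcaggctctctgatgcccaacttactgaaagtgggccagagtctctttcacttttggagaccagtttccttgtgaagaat
Nlrp6 (chr7:140920652-140920901, plus strand): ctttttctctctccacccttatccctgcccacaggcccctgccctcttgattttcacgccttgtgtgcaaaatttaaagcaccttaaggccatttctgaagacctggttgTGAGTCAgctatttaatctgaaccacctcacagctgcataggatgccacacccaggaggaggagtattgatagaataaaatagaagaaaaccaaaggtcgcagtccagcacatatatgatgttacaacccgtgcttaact
Nlrp1b had 0 CpG dinucleotides and none of the 5 motifs here. Nlrp6 had 3 CpG dinucleotides and 1 match to the AP-1 letters. The median over the 18 NOD-like receptors with a promoter in the table was 2 CpG dinucleotides, the highest being 7.

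C-type lectin-domain genes held both losses and gains. Of the 32, 5 fell in knockout (Clec10a, Clec11a, Clec12b, Clec2e and Clec2l), 4 rose (Clec2g, Clec2i, Clec4a1 and Clec5a) and 23 did not pass, beside 20.2% lower, 6.36% higher and 26.6% in either direction over all tested windows. With loess offsets 3 were lower and 7 higher, and without wildtype library 1 or without wildtype library 3, 5 were lower and 1 higher. Every knockout library was below every wildtype library at 7 members and above at 5, beside 24.6% and 13.5% of all tested windows. The median log2 fold change was 0.12, beside 0.04 over all tested windows. It was -0.02 without knockout library 2, -0.03 without wildtype library 2 and -0.07 over the 18 members whose mean count reached 50. Of the 32 windows, 18 were open by the olfactory mark, beside 62.2% of all windows. All 5 losses and 3 of the 4 gains were among these 18. Of all tested windows above the mark, 28.5% were lower and 8.27% higher.

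**Figure D4:**
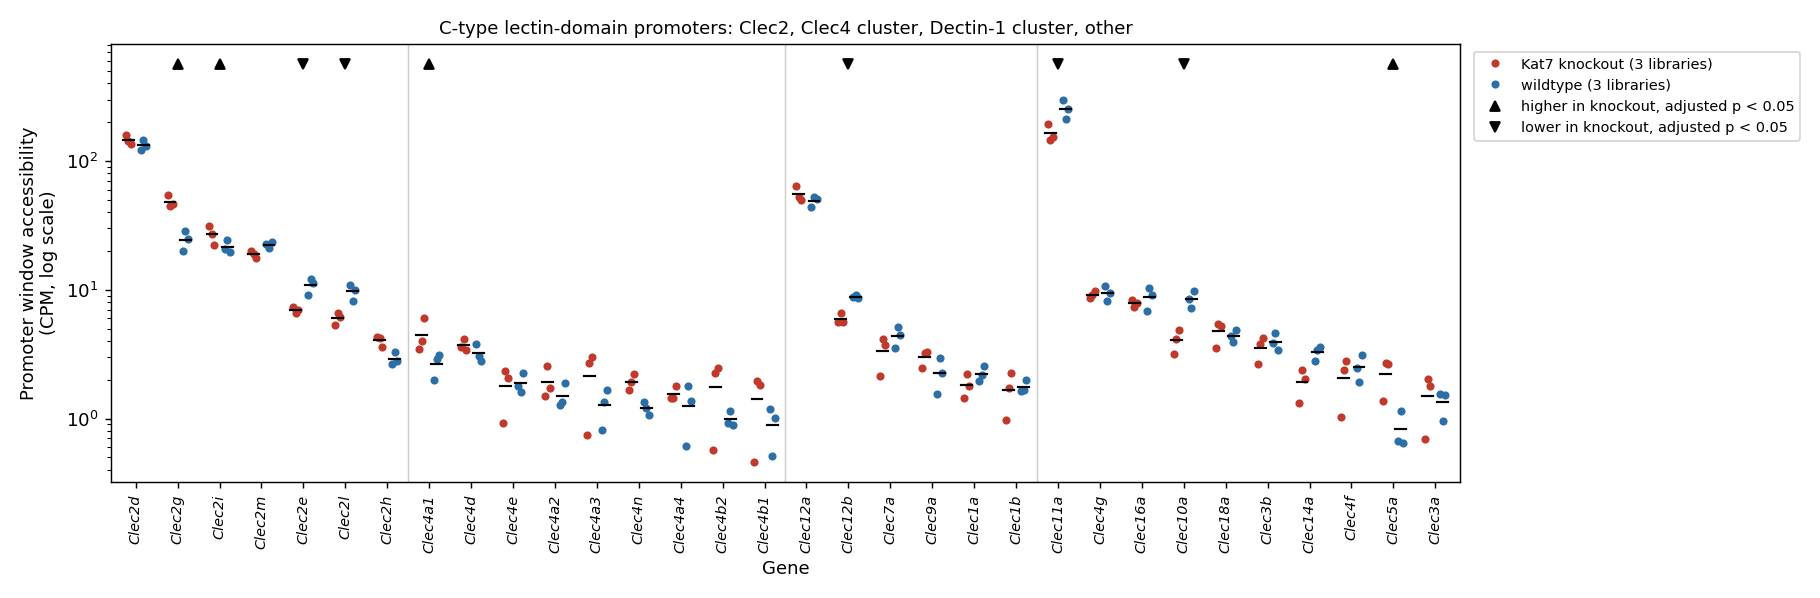
Accessibility of the 32 C-type lectin-domain windows in CPM on a log scale, with 1 point per library, a bar at the mean of 3 libraries, knockout left of wildtype, and triangles over genes that passed the test. Clec11a and Clec2d are the most open, Clec2g is higher and Clec10a lower in every knockout library, and the Clec4 cluster lies mostly between 0.5 and 4 CPM.

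The Clec2 genes, most of which lie in the natural killer gene complex of chromosome 6, include some that encode ligands of NKR-P1 receptors. Clec2g had the largest gain among open members of the family, with 54.4, 44.6 and 46.0 CPM in knockout, against 20.04, 28.7 and 24.9 CPM in wildtype (gene identifier 70809, chr6:128931381-128936381; log2 fold change 0.98, SE 0.114, adjusted p = 1.82e-16). The groups did not overlap. Clec2i, which encodes a ligand of NKR-P1F and NKR-P1G, lies 41.8 kb away and had 31.5, 27.2 and 22.3 CPM in knockout, against 20.8, 24.4 and 19.5 CPM in wildtype. Its groups overlapped, and its call (0.33, SE 0.117, adjusted p = 0.022) was lost in 5 of 14 alternatives, with an adjusted p of 0.223 without knockout library 1. It shares bases with BC035044.

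Clec2e fell in the same complex, with 7.34, 6.57 and 6.97 CPM in knockout, against 9.12, 12.2 and 11.3 CPM in wildtype (log2 fold change -0.64, SE 0.157, adjusted p = 0.000305). Clec2d, the ligand of the inhibitory receptor NKR-P1B, was the most open of the group at 145 ± 12.8 CPM in knockout and 133 ± 12.7 CPM in wildtype, and did not pass (0.12, adjusted p = 0.498). Clec2m (-0.25, adjusted p = 0.113) and Clec2h (0.48, adjusted p = 0.167), a ligand found in gut epithelium, had groups that did not overlap but did not pass. Clec2l, a relative expressed in brain that lies elsewhere on chromosome 6, fell, with 5.33, 6.57 and 6.18 CPM in knockout, against 11.0, 8.24 and 9.98 CPM in wildtype (-0.70, SE 0.166, adjusted p = 0.000181). Genes within the complex held gains, losses and values that did not pass.

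The Dectin-1 cluster, of myeloid and endothelial receptors, lies beside Clec2m. Clec12a, an inhibitory receptor for uric acid crystals, was its most open member, with 55.4 ± 6.99 CPM in knockout and 49.1 ± 4.57 CPM in wildtype, and did not pass (log2 fold change 0.18, adjusted p = 0.261). Clec12b, another inhibitory receptor, fell, with 5.62, 6.57 and 5.63 CPM in knockout, against 8.76, 9.14 and 8.62 CPM in wildtype (-0.57, SE 0.17, adjusted p = 0.00412). The groups did not overlap. The fungal beta-glucan receptor Clec7a (-0.39, adjusted p = 0.244) and the dead-cell receptor Clec9a (0.43, adjusted p = 0.335) did not pass, nor did Clec1a and Clec1b. Loess scaling, which removes a trend with accessibility, ended the calls of Clec12b (-0.10, adjusted p = 0.608), Clec2e (-0.16, adjusted p = 0.422) and Clec2l (-0.22, adjusted p = 0.25).

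The Clec4 cluster of dendritic and myeloid receptors was mostly closed. Of its 9 genes 1 was higher, none was lower and 8 did not pass, beside 6.36% higher and 20.2% lower over all tested windows. In the lowest quartile of mean CPM, 2.08% of the tested windows were higher and 1.13% lower. The genes that did not pass included the fungal and mycobacterial receptors Clec4n (Dectin-2), Clec4d and Clec4e (Mincle). Clec4a1 had 3.44, 4.0 and 5.99 CPM in knockout, against 2.00, 2.88 and 3.13 CPM in wildtype (log2 fold change 0.75, SE 0.258, adjusted p = 0.0164). Its groups lay next to each other, and the call was lost in 5 of 14 alternatives (adjusted p = 0.26 without knockout library 3). The median of the cluster was 1.43, 2.33 and 2.20 CPM in knockout libraries 1 to 3, against 1.28, 1.34 and 1.65 CPM in wildtype libraries 1 to 3. Without knockout library 1, Clec4a3 (1.17), Clec4b1 (1.05) and Clec4b2 (1.25) were called higher as well, in a fit where 12.6% of all tested windows were higher.

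Among the remaining members, Clec11a, a secreted growth factor for bone and blood progenitors, was the most open of all 66. It had 194, 144 and 154 CPM in knockout, against 297, 211 and 255 CPM in wildtype (gene identifier 20256, chr7:44304959-44309959; log2 fold change -0.63, SE 0.128, adjusted p = 6.57e-06). The ranges were close without overlapping. The window shares bases with that of Shank1, which fell further (-2.13), and 2305 of its bases are unshared. Further neighbours fell too, namely Acp4 (-0.52), 1700008O03Rik (-0.64) and Syt3 (-1.23).

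Clec10a, a galactose-type lectin of macrophages, had the largest loss of the family. It held 3.15, 4.12 and 4.89 CPM in knockout, against 8.46, 7.16 and 9.81 CPM in wildtype (gene identifier 17312, chr11:70163623-70168623; log2 fold change -1.07, SE 0.188, adjusted p = 1.49e-07). Knockout libraries were all lower. Its paralog Mgl2, 31.3 kb away, did not pass (0.01), and Slc16a11 on the other side fell (-0.51). Clec5a, a myeloid receptor that signals through DAP12, had 1.38, 2.69 and 2.63 CPM in knockout, against 0.666, 1.15 and 0.650 CPM in wildtype (1.44, SE 0.447, adjusted p = 0.00648). Its window was in the closed range, its groups did not overlap, and the call was lost in 3 of 13 alternatives. Clec14a, an endothelial receptor, just missed the threshold (-0.77, adjusted p = 0.0527), and the other 6 did not pass, with log2 fold changes between -0.27 and 0.14.

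The promoter of Clec2g is printed because its gain passed in all 14 alternatives.
Clec2g (chr6:128934131-128934380, plus strand): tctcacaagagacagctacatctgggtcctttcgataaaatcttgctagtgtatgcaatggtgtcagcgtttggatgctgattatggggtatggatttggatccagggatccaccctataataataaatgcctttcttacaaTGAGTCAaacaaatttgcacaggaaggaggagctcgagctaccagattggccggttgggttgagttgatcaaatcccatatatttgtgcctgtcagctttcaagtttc
It had 4 CpG dinucleotides and 1 match to the AP-1 letters. Of the 26 C-type lectin-domain genes with a promoter in the table, 5 held the AP-1 site and 7 the TATA box, and the median was 3 CpG dinucleotides. Over all 3 families, the median was 3 CpG dinucleotides for members that rose, for those that fell and for those that did not pass, against 6 over all promoters.

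**Figure D5:**
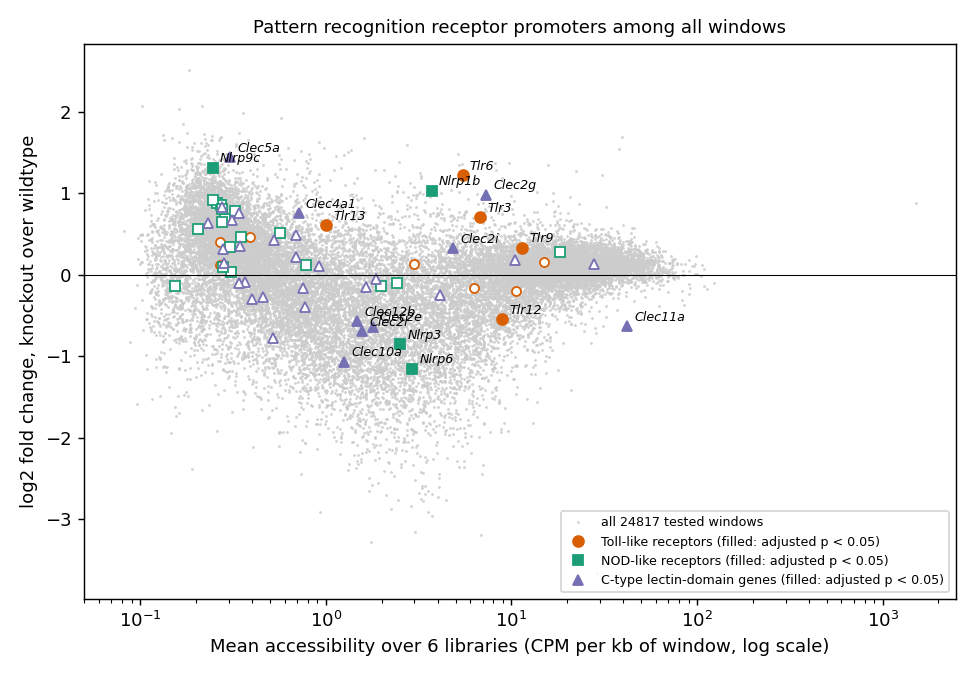
Log2 fold change of knockout over wildtype against mean accessibility in CPM per kb of window on a log scale, with all 24817 tested windows in grey and the members in colour, filled where the adjusted p was under 0.05. Tlr6, Nlrp1b and Clec2g lie above most windows of like accessibility, Nlrp6 and Nlrp3 lie among many windows that fell, and members with the lowest levels cluster above 0.

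The share of windows that changed depended on accessibility. Quartiles of mean CPM over all tested windows had medians of 1.21, 4.13, 27.7 and 107 CPM. Lower calls made up 32% of the second quartile and 43.8% of the third, against 1.13% of the first and 3.87% of the fourth. Higher calls made up 2.08%, 4.77%, 9.22% and 9.36% from the first to the fourth. The median log2 fold changes were 0.37, -0.26, -0.19 and 0.11 in the same order. Toll-like receptors numbered 3, 1, 7 and 1 in these quartiles, NOD-like receptors 14, 3, 4 and 1, and C-type lectin-domain genes 11, 15, 4 and 2. Tlr3, Tlr6, Tlr9, Nlrp1b, Clec2g and Clec2i, all of which rose, were in the third, as were Tlr12, Nlrp3 and Nlrp6, which fell.

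Among genes that carry the signal from these receptors, Cd180, Syk, Casp1, Casp4, Gsdmd and Cd14 rose and Fcer1g, Lbp and Ticam2 fell. Of a list of 38 adaptors, kinases, co-receptors and inflammasome components, 35 were tested, 6 were higher in knockout, 3 were lower and 26 did not pass, with a median log2 fold change of 0.05 (-0.02 without knockout library 1). Over all tested windows 6.36% were higher and 20.2% lower. The windows of Myd88, Irak4 and Ripk2 share bases with neighbours and had too few counts to be tested. Cd180, which encodes a TLR4-like receptor of B cells, rose most, with 10.2 CPM in knockout and 6.02 CPM in wildtype (0.77, adjusted p = 2.2e-05). The kinase gene Syk (0.44, adjusted p = 0.000779), Casp1 (0.42, adjusted p = 0.00174), Gsdmd, which encodes the pore of pyroptosis (0.36, adjusted p = 0.00653; its window shares bases with another), and Casp4 (0.36, adjusted p = 0.0133) rose, as did the lipopolysaccharide co-receptor Cd14 (0.32, adjusted p = 0.0182). Fcer1g, the signalling chain of several C-type lectins, fell (-0.61, adjusted p = 1.78e-06), as did Lbp (-0.40, adjusted p = 0.00255) and the adaptor gene Ticam2 (-0.34, adjusted p = 0.0123). Unc93b1, which escorts endosomal Toll-like receptors, did not pass (0.28, adjusted p = 0.0741), and its window shares bases with Aldh3b1.

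Of 25 receptor genes of other families, 2 were higher, 4 were lower and 19 did not pass, beside 6.36% higher and 20.2% lower over all tested windows. Ddx58, which encodes the RNA sensor RIG-I (0.48, adjusted p = 0.000134), and the DNA sensor gene Aim2 (0.32, adjusted p = 0.0187) rose. The flagellin-binding Naip5 (-0.78, adjusted p = 7.54e-07) and Naip2 (-0.37, adjusted p = 0.0109), the collagen receptor Mrc2 (-0.79) and the lectin-like lipoprotein receptor Olr1 (-1.03, overlapping window) fell. Nod1 (-0.10), Nod2 (-0.07), Mavs (-0.19) and Sting1 (-0.22) did not pass.

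Many of these receptors are known from myeloid cells, so markers of other cells were measured beside them. Over all tested windows, 20.2% were lower and 6.36% higher. Lower calls made up 32% of the second quartile of mean CPM and 43.8% of the third. Of 12 macrophage and dendritic cell markers, 4 were lower (Csf1r, Lyz2, Flt3 and Spi1), 1 was higher (Zbtb46) and none was at 0 in any library. Their summed level was 255 to 307 CPM in knockout and 248 to 254 CPM in wildtype libraries. Zbtb46 and Cd68 held most of it, and the other 10 summed to 52.7 to 56.5 CPM in knockout and 64.5 to 69.6 CPM in wildtype. The sum was 36.4 to 38.1 CPM in knockout and 57.2 to 58.3 CPM in wildtype for 5 B cell markers (3 lower). It was 34.7 to 37.5 CPM in knockout and 27.9 to 31.8 CPM in wildtype for 7 thymocyte markers (6 tested, 2 higher). It was 27.5 to 32.5 CPM in knockout and 38.7 to 41.7 CPM in wildtype for 4 natural killer markers, of which 1, Eomes, was lower. The other 3 summed to 6.36 to 10.9 CPM in knockout and 6.0 to 7.74 CPM in wildtype, and none of them passed. By the olfactory mark, the windows of Itgax, Adgre1, Siglech, Fcgr1, Ms4a1, Cd3d, Cd4, Ptcra, Ncr1 and Klrk1 were in the closed range. The Cd3d window shares bases with that of Cd3g, has only 355 unshared bases and had too few counts to be tested. Its low level is therefore not a measure of closed chromatin. Of 4 endothelial markers 2 were lower and 1 higher, and of 4 mesenchymal markers 3 were lower. Endothelial markers summed to 31.8 to 34.7 CPM in knockout and 39.8 to 43.3 CPM in wildtype, and mesenchymal markers to 70.5 to 73.9 CPM in knockout and 105 to 108 CPM in wildtype. In bulk samples a change in the share of cells of a type and a change within cells cannot be told apart, and the part of these markers in the receptor values was not tested.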

How the data were processed

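The 6 ATAC-seq libraries came from medullary thymic epithelium, 3 from Kat7-knockout and 3 from wildtype mice. The authors deposited raw counts, 1 whole number per gene and library. The submitters' processing notes name featureCounts and mm10. Which aligner was used, how duplicate and multi-mapping reads were treated, and whether reads were shifted for the transposase offset were not given in the sources used here. They could raise single windows or blur close copies, while a shift of a few bases is small beside windows of 5001 bases. Counts of the 6 libraries' own tables equalled those of the table of the whole series. Symbols came from the libraries' own tables, joined by gene identifier, and 1280 of 27095 windows had none. Windows that share bases with another numbered 6243, and members and listed receptor genes named are marked where theirs did.

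The test used edgeR 4.0.16 under R 4.3.3: filterByExpr defaults (24817 windows left), TMM factors (0.8843 to 1.057), the robust quasi-likelihood test of knockout against wildtype, and Benjamini-Hochberg adjustment over all windows at 0.05. The common biological coefficient of variation was 10.9%. The SE of a log2 fold change was taken from the F statistic. Every adjusted p comes from this fit unless another setting is named. A count of 3 equals 0.154 to 0.192 CPM, the limit that 0 counts allow; it covers counting error only. Library totals did not separate the groups (exact two-sided permutation p = 0.7, smallest possible 0.1).

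Named were all Toll-like receptors, the called members of the other families, the 5 most accessible members of each, and the called list genes up to 8; others were chosen after their values were seen. The members and lists were chosen with earlier results of these data known. Alternatives used limma-voom (limma 3.58.1), DESeq2 1.42.0, other scalings and filters, a replicate block, and leaving out each library.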

Additional observations from a re-analysis of the deposited data

How the results depend on the processing

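With other scalings, filters and tools, and with 1 library left out, the direction of all 18 called members was kept in each of the alternatives that could be computed (up to 14), and 9 kept their call in all of them: Tlr3, Tlr6, Tlr12, Nlrp1b, Nlrp3, Nlrp6, Clec2g, Clec10a and Clec11a. Of all calls, 23.9% were higher with TMM, 35.6% with library totals, 47.7% with loess offsets, 44.4% where mean counts reached 50, 33.8% with the replicate block and 29.6% with DESeq2 size factors, which moved the median of all windows to 0.10. Windows higher in knockout numbered 1578, and 2937 with library totals, 4732 with loess offsets, 3937 where mean counts reached 50 and 2824 with the replicate block. Leaving out 1 library gave 689 (without wildtype library 1) to 3177 (without knockout library 1) higher and 4227 to 5709 lower windows. Toll-like receptors called lower numbered 2 with library totals, with no filter and where mean counts reached 50, and 1 to 2 (2 without knockout library 1 or wildtype library 2) with a library left out; those called higher numbered 2 to 4, with 2 without wildtype library 1 or 3. NOD-like receptors called higher numbered 5 with loess offsets, 4 with the replicate block, and 1 to 11 with a library left out; it was 11 without knockout library 1 and 1 without each of the other libraries, and 2 were lower throughout. C-type lectin-domain genes numbered 3 lower and 7 higher with loess offsets, and 5 to 6 lower and 1 to 6 higher with a library left out, with 1 higher without wildtype library 1 or 3 and 2 without knockout library 2. Receptor signalling genes numbered 5 lower and 10 higher with loess offsets, 10 higher where mean counts reached 50 and with the replicate block, and 2 to 3 lower and 2 (without wildtype library 1) to 9 higher with a library left out. The Kat7 log2 fold change was -4.41 to -3.38 with a library left out (-3.60 without wildtype library 1 and -3.67 without wildtype library 3, where it did not pass). Signs turned at some members that had not passed. Among them, with loess offsets, were Clec2d (-0.02), Nlrp10 (0.36, adjusted p = 0.0302), Tlr5 (0.07) and Tlr8 (-0.14). Tlr8 also turned without knockout library 2 (-0.14) and wildtype library 3 (-0.09), its values with a library left out being -0.14 to 0.40. Without knockout library 1, Clec4e (0.22), Clec1b (0.17), Clec4f (0.05) and Clec3b (0.01) turned from negative to positive. The cause was not tested. The labels do not say whether equal replicate numbers mark a pair or a batch. Deviations of same-numbered libraries correlated at 0.374, 0.0284 and 0.389. Each wildtype library correlated best with the knockout library of its number, while knockout library 2 correlated best with wildtype library 3 (0.308). Whether the libraries were paired was not tested, and the main fit used no block. Closed windows hold few counts, which limits the precision there.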
